A study of Zea mays with 12 samples.

Results

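Gene body m6A peaks are the peaks whose summit lay between 10% and 80% of the length of a gene, read from its 5′ to its 3′ end. A peak was taken when its summit fell in the span of exactly 1 gene of the same line, and 11732 of the 64785 peaks in 4 lists met the rule. Of these, 8317 overlapped a peak of the other replicate list by at least 1 bp and are called core peaks here. Peaks past 80% of the span, called 3′ peaks, numbered 39274, and peaks before 10% of the span, called 5′ peaks, numbered 998. The other peaks had a summit in no span (2169 to 3765 per list) or in several (188 to 276 per list). The rule used the position of the summit and not its height, its width or the expression of the gene.

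The samples were seedlings, 14 days old, of the maize inbred lines Mo17 and B73, kept under a daily cycle of light (16 h, 28 °C) and dark (8 h, 25 °C), with no treatment and no mutant allele named in the labels. Each line had 2 m6A-seq samples, 2 polysome RNA samples (RNA recovered bound to ribosomes) and 2 RNA-seq samples, 12 in all. Whether replicates were separate plants is not in the labels; a p-value here therefore reflects the spread among the samples as given, and that spread may be technical. Seedlings hold leaf, stem and other cells together, and the gene identifiers could not be paired with names (0 of 1455 Mo17 and 0 of 1375 B73 genes with a core body peak), so the tissue was not checked with marker genes and genes are called by their identifiers.

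N6-methyladenosine (m6A) is a methyl mark that a methyltransferase complex places on adenosines of messenger RNA. Reader proteins of the YTH family bind it, and demethylases of the ALKBH family can remove it. In plants the mark is best known from the region around the stop codon and the 3′ untranslated region, where it has been tied to RNA stability, poly(A) site choice and translation. Marks within the body of a gene, in coding exons or in introns that are later removed, are less often described. m6A-seq locates the mark by precipitating RNA fragments with an antibody, and a peak is a stretch where the precipitated reads exceed a control. Exons were not used here, so a gene span holds introns, and a body peak may lie in either.

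Gene bodies held a minority of the gene-assigned summits in every list. The lists had 3093 and 2579 body peaks in Mo17 and 3348 and 2712 in B73, which was 24.9% and 22.7% of assigned peaks in Mo17 and 23.1% and 19.8% in B73. The lines overlapped, with the second Mo17 list below the first B73 list. Mo17 averaged 23.8% ± 1.56 and B73 21.4% ± 2.33 (SD, n = 2 lists each), a difference of 2.39 percentage points that did not exceed the spread between lists (exact permutation test, two-sided p = 0.667, the smallest p possible being 0.333; adjusted p = 0.667 over 4 tests). 3′ peaks took 73.2% and 75.5% of assigned peaks in Mo17 and 74.9% and 78.3% in B73, and 5′ peaks took 1.78% to 2.05%.

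**Figure D1:**
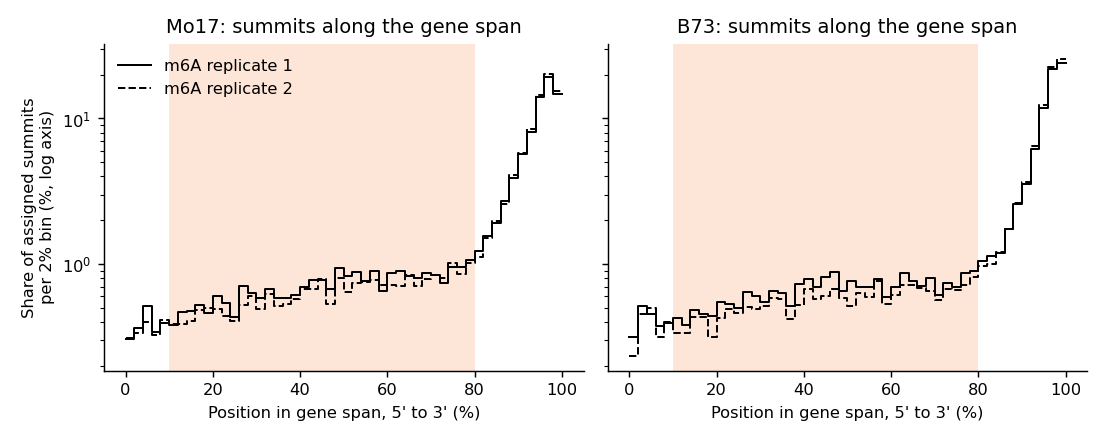
Share of the gene-assigned peak summits (%, log axis) in bins of 2% of the gene span from the 5′ to the 3′ end, for the 2 lists of Mo17 (left) and of B73 (right). The gene body from 10% to 80% holds 19.8% to 24.9% of summits, spread over its whole length, and most summits lie past 80%.

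Within the body, core peaks thickened towards the 3′ side. The stretch from 10% to 20% of the span held 8.8% and 8.89% of the core body peaks in Mo17 and 8.82% and 8.65% in B73. From 40% to 50% the shares were 14.8% and 14.8% in Mo17 and 16.2% and 16.3% in B73. From 70% to 80% they were 20.1% and 20.7% in Mo17 and 18.3% and 18.4% in B73. In Mo17 each later stretch of 10% held more core peaks than the one before it, and in B73 the stretch from 50% to 60% (14.8% and 14.9%) held fewer than the one before it. The median fold of core peaks changed little along the body and stayed between 5.98 and 6.88 in every stretch of 10% in the 4 lists.

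The limits of the rule cut through a continuous slope. Just inside the 3′ limit, from 78% to 80% of the span, the lists held 132 and 115 peaks in Mo17 and 129 and 111 in B73, with median folds of 5.78 and 5.90 in Mo17 and 5.69 and 6.87 in B73. Just outside it, from 80% to 82%, they held 152 and 127 peaks in Mo17 and 152 and 132 in B73, with median folds of 5.73 and 5.71 in Mo17 and 5.73 and 6.14 in B73. Just inside the 5′ limit (10% to 12%) there were 44 to 62 peaks per list with median folds of 5.63 to 5.86, and just outside it (8% to 10%) there were 47 to 57 peaks with median folds of 5.26 to 5.66.

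Body peaks were shared between replicates less often than 3′ peaks in each of the 4 lists. The core share of body peaks was 67.6% and 79.4% in Mo17 and 62.3% and 77.1% in B73. The core share of 3′ peaks was 89.97% and 93.8% in Mo17 and 91.6% and 91.8% in B73. The highest body share lay below the lowest 3′ share, and the mean difference was −20.2 ± 7.12 percentage points (SD, n = 4 lists; exact sign-flip permutation test, two-sided p = 0.13, the smallest that 4 lists can give; adjusted p = 0.167 over 4 tests). In each line the list with more body peaks had the lower core share, which largely follows from the definition of core peaks. A core peak overlaps a peak of the other list, so the core counts of a line are close by construction. These counts were 2091 and 2048 in Mo17 and 2086 and 2092 in B73. The body peaks with no partner numbered 1002 and 531 in Mo17 and 1262 and 620 in B73. Peaks with no partner were lower and narrower than core peaks, with median folds of 5.26 to 5.74 and median widths of 66 to 76 bp. The sources used here give no read number for the lists, and its part in these shares was not tested.

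Core body peaks were also lower than core 3′ peaks. Fold enrichment is the authors' value for each peak and was compared within a list only. The median fold of core body peaks was 6.65 and 6.51 in Mo17 and 6.58 and 6.64 in B73, against 7.49 and 7.67 in Mo17 and 7.73 and 8.24 in B73 for core 3′ peaks. All 4 lists had the lower median in the body, by a mean of −1.19 ± 0.314 (SD, n = 4 lists; exact sign-flip permutation test, two-sided p = 0.13, adjusted p = 0.167 over 4 tests). With −log10 q of at least 10 asked of every peak, the difference shrank to −0.32 (exact permutation p = 0.13). A fold of at least 10 was reached by 14.2% and 13.2% of core body peaks in Mo17 and 13.5% and 13.0% in B73, against 28.0% and 29.4% of core 3′ peaks in Mo17 and 31.4% and 35.6% in B73. The ranges overlapped widely, with body folds up to 21.7 and 26.7 in Mo17 and 26.1 and 31.1 in B73, against 3′ folds up to 29.8 and 29.8 in Mo17 and 31.1 and 33.0 in B73.

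The same lists gave narrower core peaks in the body. Median widths were 139 and 132 bp in Mo17 and 128 and 118 bp in B73 for body peaks, against 157 and 157 bp in Mo17 and 154 and 156 bp in B73 for 3′ peaks. The mean difference was −26.8 ± 8.30 bp (SD, n = 4 lists; exact sign-flip permutation test, two-sided p = 0.13, adjusted p = 0.167 over 4 tests). With −log10 q of at least 10 asked of every peak, little of it was left, at −3.5 bp (exact permutation p = 0.25). The authors' −log10 q had medians of 8.94 and 7.37 in Mo17 and 8.01 and 8.02 in B73 for core body peaks, against 15.7 and 14.1 in Mo17 and 16.1 and 17.5 in B73 for core 3′ peaks. Summits of body peaks were placed less exactly. The median distance to the summit of the overlapping peak in the other list was 14 and 13 bp in Mo17 and 15.5 and 16 bp in B73 for body peaks, against 7 bp in every list for 3′ peaks. Within 25 bp of each other lay 63.6% to 65.0% of the body summits, against 81.1% to 82.5% of the 3′ summits. The heights of paired body peaks followed each other between the 2 lists of a line, with a Pearson correlation of log2 fold of 0.597 over 2109 pairs in Mo17 and 0.60 over 2131 pairs in B73. This correlation is across peaks, which share libraries and genes and are not independent replicates.

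**Figure D2:**
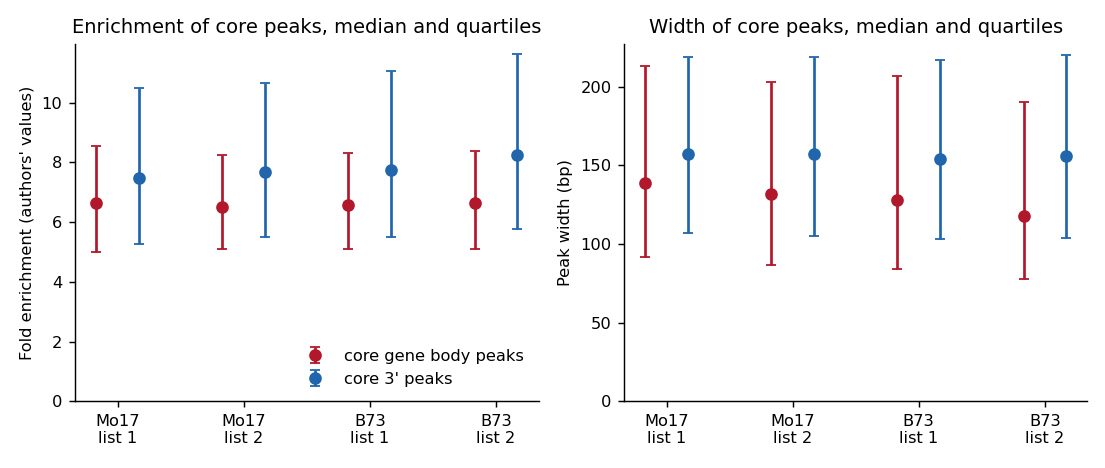
Median (point) and quartiles (bar) of the fold enrichment (left) and the width in bp (right) of core peaks in the 4 lists, for body peaks and for 3′ peaks. Body medians (6.51 to 6.65 fold and 118 to 139 bp) lie below 3′ medians (7.49 to 8.24 fold and 154 to 157 bp) in each list, and the quartile bars overlap.

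The body peaks described next were chosen for the highest fold shared by both lists of a line, so their presence in both is part of the choice and higher peaks of a single list are not among them. In Mo17 the highest pair was in Zm00014a_027777 (chromosome 2, 173577070 to 173585778, plus strand), with folds of 20.1 and 19.9 and summits 1690 and 1679 bp from the 5′ end, at 19.4% and 19.3% of the span. This gene also held a core 3′ peak, with folds of 6.39 and 10.8. In Zm00014a_006080 (chromosome 3, 180317723 to 180340711, minus strand) the body summit stood at the same base in both lists, 17698 bp from the 5′ end, with folds of 20.04 and 18.9, and 3′ peaks of the gene reached 8.52 and 5.25. Zm00014a_009096 (chromosome 6, 67513906 to 67524824, plus strand) and Zm00014a_019404 (chromosome 2, 20756408 to 20761483, plus strand) had a single body peak each and no 3′ peak, with folds of 18.6 and 18.4 in the first gene and 19.2 and 18.0 in the second.

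In B73 the highest pair was in Zm00001d021796 (B73 RefGen_v4 chromosome 7, 163104643 to 163110568, plus strand), with folds of 26.1 and 21.3 at 21.0% and 20.9% of the span. Its FPKM, a count of fragments scaled by gene length and library size, is listed at 0 in both polysome and both RNA-seq libraries, so the peak lies in a span for which the tables list no gene expression. Zm00001d052028 (chromosome 4, 176844373 to 176866604, plus strand) had folds of 22.8 and 21.2 at the middle of the span, 11416 and 11429 bp from the 5′ end. Zm00001d026485 (chromosome 10, 146872939 to 146890622, plus strand) had folds of 20.9 and 25.5 at 72.5% of the span in both lists, and its 3′ peaks of 5.19 and 5.99 did not overlap between lists. In Zm00001d043309 (chromosome 3, 195736199 to 195749967, minus strand) the folds were 18.7 and 21.4 and the summits lay 1 base apart, 6566 and 6565 bp from the 5′ end.

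Body peaks sat in longer genes than 3′ peaks did, and far from both ends. The median span at core body peaks was 11871 and 11554 bp in Mo17 and 12592 and 12630 bp in B73, against 5710 and 5705 bp in Mo17 and 5481 and 5470 bp in B73 at core 3′ peaks. Long spans were not particular to body peaks, since core 5′ peaks had 11275 and 11631.5 bp in Mo17 and 8540 and 8296 bp in B73. These medians are over peaks, so a gene with several peaks counts several times. Core summits lay a median of 5702 and 5587 bp in Mo17 and 6171 and 6206 bp in B73 from the 3′ end for body peaks, against 243 and 242 bp in Mo17 and 170 and 169 bp in B73 for 3′ peaks. The rule sets part of this distance, since in a short gene the body limit is close to the 3′ end. Few body peaks were near an end in bases: 4.26% to 4.65% lay within 500 bp of the 3′ end and 2.0% to 2.49% within 500 bp of the 5′ end. Genes over 20000 bp held 24.8% and 24.5% of the core body peaks in Mo17 and 29.1% and 29.4% in B73, against 6.92% and 6.90% of the core 3′ peaks in Mo17 and 6.72% and 6.65% in B73.

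The share of expressed genes with a core body peak grew with the span. A gene counted as expressed when neither RNA-seq library of the line had it below 1 FPKM. Among spans up to 1000 bp, 1.44% of the expressed genes in Mo17 and 1.72% in B73 had a core body peak. For spans over 4000 and up to 8000 bp the share was 5.86% in Mo17 and 5.59% in B73, and over 16000 bp it was 35.1% in Mo17 and 39.4% in B73. The share with a core 3′ peak levelled off instead, at 55.6% in Mo17 and 65.9% in B73 for spans over 4000 and up to 8000 bp and 58.2% in Mo17 and 69.2% in B73 over 16000 bp.

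In all, 1455 Mo17 genes and 1375 B73 genes held at least 1 core body peak. Of these, 800 in Mo17 and 575 in B73 had peaks in the body and nowhere else (body-only genes). A core 3′ peak was also present in 589 Mo17 genes and 703 B73 genes, which is 40.5% and 51.1%. With −log10 q of at least 10 asked of every peak, these shares were 22.4% in Mo17 and 29.6% in B73. The remaining 66 in Mo17 and 97 in B73 also had 5′ peaks, or 3′ peaks that were not shared between lists. For comparison, 6708 Mo17 and 8052 B73 genes had 3′ peaks alone (3′-only genes). The line with more 3′ peaks, B73, had the higher share of body genes with a 3′ peak; the lines have separate gene models and the difference was not tested.

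The 2 classes of body genes were unlike in length. Body-only genes had a median span of 5783 bp in Mo17 and 5446 bp in B73, against 5289 bp in Mo17 and 5017 bp in B73 for 3′-only genes. Genes with both kinds of peak had a median span of 13449 bp in Mo17 and 13266 bp in B73. With 1 list alone and no overlap asked for, the body-only excess over 3′-only genes was 295 to 359.5 bp in Mo17 and 9.5 to 115 bp in B73. With body peaks at least 1000 bp from the 3′ end it was 2740.0 bp in Mo17 and 2232 bp in B73. In body-only genes the core body summits lay 2645 and 2652 bp from the 3′ end in Mo17 and 2510 and 2518 bp in B73 (medians), at 58.0% and 57.9% of the span in Mo17 and 56.4% and 56.0% in B73. In genes with both kinds they lay 7854 and 7730 bp from the 3′ end in Mo17 and 8398 and 8422 bp in B73, at 48.7% and 48.6% of the span in Mo17 and 47.7% and 47.7% in B73. The median fold of body peaks was 6.37 to 7.11 in body-only genes and 6.45 to 6.68 in genes with both kinds.

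Where a gene held both kinds of core peak in a list, the 3′ peak was more often the higher. The highest body peak exceeded the highest 3′ peak in 38.3% and 34.6% of such genes in Mo17 (of 567 and 558) and in 29.1% and 26.6% in B73 (of 676 and 677). The median ratio of body to 3′ fold was 0.82 and 0.778 in Mo17 and 0.74 and 0.707 in B73. Of 554 Mo17 genes with both kinds in both lists, the body peak was the higher in both lists in 132 and the 3′ peak in 276. Of 671 B73 genes, the body peak was the higher in both lists in 105 and the 3′ peak in 401.

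Some genes ran clearly against that order. Ranked by the lower ratio of the 2 lists, the first gene in Mo17 was Zm00014a_029212 (chromosome 1, 271177911 to 271186863, minus strand), where the body peak had folds of 15.7 and 15.8 against 4.68 and 4.14 for the 3′ peak. The body summit stood at the same base in both lists, 4173 bp from the 5′ end. In Zm00014a_040210 (chromosome 8, 15801223 to 15808999, minus strand) the body folds were 9.35 and 9.62 against 2.30 and 3.03 for the 3′ peak. In B73 the first gene by the same ranking was Zm00001d052803 (chromosome 4, 201411028 to 201419311, minus strand), with body folds of 11.997 and 10.8 against 3.11 and 2.71 for the 3′ peak. The next was Zm00001d027841 (chromosome 1, 14831571 to 14846630, plus strand), with body folds of 5.74 and 5.83 against 1.72 and 1.8 for the 3′ peak.

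Most genes with body peaks had a single core body peak. A single one was found in 80.6% and 81.2% of genes in Mo17 and 78.8% and 78.9% in B73. Another 143 and 140 genes in Mo17 and 133 and 129 in B73 had 2, and 136 and 131 genes in Mo17 and 155 and 157 in B73 had 3 or more. Neighbouring core body summits of 1 gene were a median of 765 and 832 bp apart in Mo17 and 675 and 673 bp apart in B73. Genes with more body peaks were longer: taking the lower count of the 2 lists, genes with 1 core body peak had a median span of 7460 bp in Mo17 and 7292 bp in B73, and genes with 3 or more had 18905 bp in Mo17 and 19497 bp in B73. A core 3′ peak was present in 32.8% of genes with 1 core body peak and 76.4% of genes with 3 or more in Mo17, and in 42.7% and 82.6% in B73.

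The richest genes carried strings of body peaks. Zm00014a_030343 of Mo17 (chromosome 1, 119913724 to 119953571, minus strand) had 15 and 16 core body peaks between 40.5% and 76.4% of its 39848 bp span, a median of 560.5 and 649 bp apart. Their folds ran from 5.06 to 11.2 in list 1 and from 4.20 to 16.1 in list 2. Zm00014a_042050 (chromosome 8, 88186053 to 88213250, minus strand) had 13 in each list between 22.7% and 68.7% of its 27198 bp span. In B73, Zm00001d030282 (chromosome 1, 118828597 to 118879142, minus strand) had 17 and 16 core body peaks between 29.9% and 69.5% of its 50546 bp span, a median of 477.5 and 495 bp apart. Zm00001d038093 (chromosome 6, 147577082 to 147627637, plus strand) had 15 in each list, spread from 14.1% to 67.8% of a 50556 bp span. In Zm00014a_030343 no core body peak lay before 40.5% of the span.

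**Figure D3:**
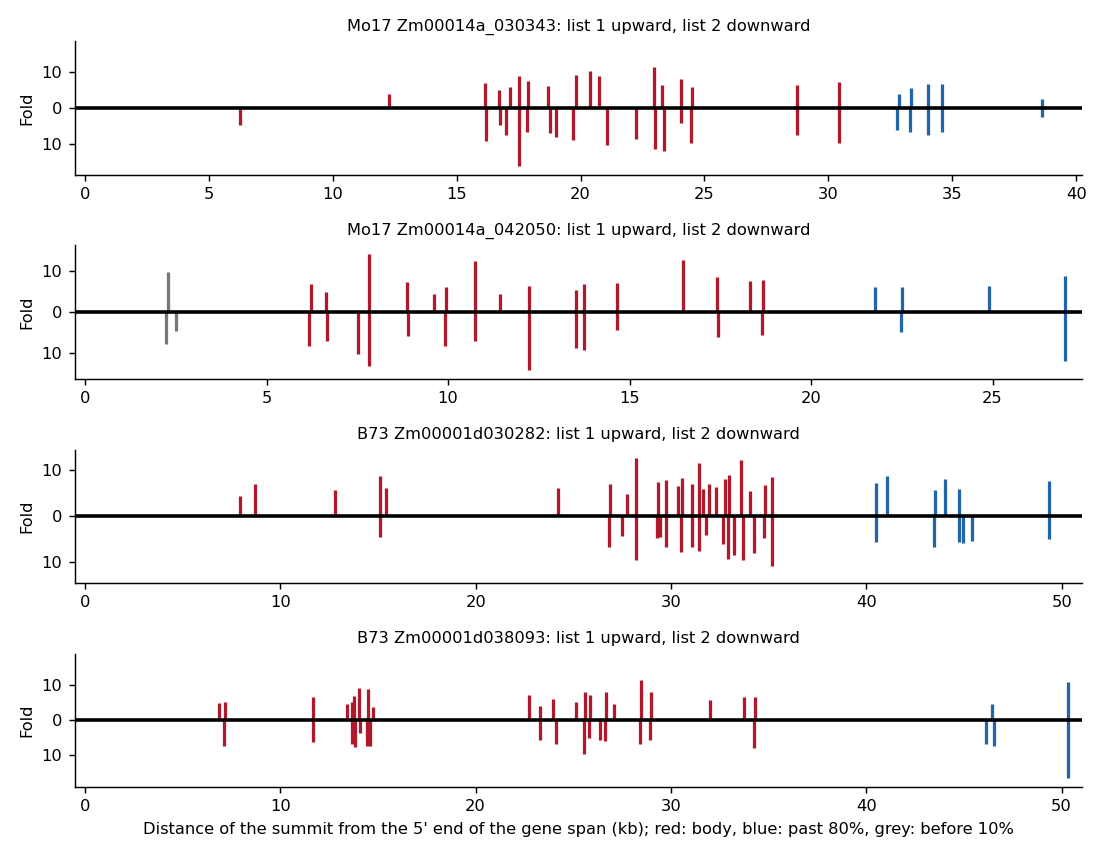
Fold enrichment of every peak (vertical axis, list 1 upward and list 2 downward) by the distance of its summit from the 5′ end of the gene (kb), in the 2 genes of each line with the most core body peaks. The 13 to 17 core body peaks of each gene recur between lists, as their definition asks, and each gene also has peaks past 80% of the span.

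Among expressed genes, RNA levels of body-only genes were close to those of 3′-only genes. Levels are medians of log2(FPKM + 1) over the expressed genes, computed in each RNA-seq library. In Mo17 the median was 3.50 ± 0.078 for body-only genes and 3.56 ± 0.062 for 3′-only genes, and in B73 it was 2.79 ± 0.032 and 2.82 ± 0.038 (SD, n = 2 libraries each). The difference within a library averaged −0.056 ± 0.016 in Mo17 and −0.028 ± 0.0055 in B73 (SD, n = 2). Genes with both kinds of peak had 3.44 ± 0.073 in Mo17 and 2.69 ± 0.022 in B73, lower than 3′-only genes by −0.12 ± 0.011 in Mo17 and −0.12 ± 0.015 in B73. These differences are small on the log2 scale, and no p is given because genes are not replicates. With no expression filter the body-only difference was larger, at −0.221 in Mo17 and −0.277 in B73. With m6A list 1 or 2 alone and no overlap asked for, the body-only difference was −0.13 and −0.11 in Mo17 and −0.086 and −0.13 in B73. With body peaks at least 1000 bp from the 3′ end it was −0.32 in Mo17 and −0.26 in B73, and with −log10 q of at least 10 it was −0.18 in Mo17 and 0.00079 in B73. In seedlings, fewer cells with a transcript and less of it in each cell cannot be told apart.

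A core body peak was also present in genes with little or no listed expression. Among body-only genes, 89.1% were expressed in Mo17 and 77.7% in B73, against 94.8% of 3′-only genes in Mo17 and 86.8% in B73. FPKM was listed at 0 in all 4 libraries for 16 body-only genes in Mo17 and 16 in B73. The names in the peak lists set the antibody samples against a control labelled as the RNA-seq samples are, so a peak's fold and the RNA level of its gene may rest on the same libraries, and the link between these measures was not tested.

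Polysome RNA was set against RNA-seq to ask whether genes with body peaks differed in the share of their RNA bound to ribosomes. Each line was fitted alone with limma on log2(FPKM + 1) over genes that reached 1 FPKM in 2 or more of its 4 libraries. Calls needed an adjusted p (Benjamini-Hochberg, over all tested genes) below 0.05 together with a log2 ratio of 1 or more in either direction. Over all 20208 tested Mo17 genes, 5.07% were called higher and 16.6% lower in polysome RNA. Over all 19342 tested B73 genes, 16.6% were called higher and 5.36% lower. The direction of most calls turned with the scaling: with libraries scaled to the median of log ratios, Mo17 had 2569 genes higher and 1270 lower in place of 1024 and 3351, and with equal sums over the gene models B73 had 675 higher and 2557 lower in place of 3220 and 1036. Values are therefore read against the median of all tested genes, which was −0.36 in Mo17 and 0.29 in B73 as deposited.

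The calls among body-only genes are set beside those of all tested genes, with no test of the difference. Of 800 in Mo17, 735 were tested. In polysome RNA 60 of them were higher (8.16%, against 5.07% of all tested genes) and 109 lower (14.8%, against 16.6%). Of 575 in B73, 484 were tested. In polysome RNA 119 of them were higher (24.6%, against 16.6% of all tested genes) and 19 lower (3.93%, against 5.36%). Among 3′-only genes the shares were 6.84% higher and 14.0% lower in Mo17 and 20.6% higher and 1.91% lower in B73. The median log2 ratio of body-only genes was −0.25 in Mo17 and 0.45 in B73, against −0.31 in Mo17 and 0.36 in B73 for 3′-only genes. With libraries scaled to the median of log ratios, 142 body-only genes were higher and 47 lower in Mo17 and 64 higher and 31 lower in B73. The calls over all tested genes moved with that scaling too, to 2569 higher and 1270 lower in Mo17. The expression filter was applied after scaling, so the set of tested genes could change as well, and no share is given. These counts are therefore not to be read against the shares as deposited. The difference of body-only from 3′-only genes in the median log2 ratio as deposited averaged 0.044 ± 0.034 in Mo17 and 0.071 ± 0.038 in B73 (SD over the 2 replicate numbers). This SD sets same-numbered libraries against each other, and another pairing could give another SD. Across the alternatives run, the difference of the medians ran from −0.13 to 0.17 in Mo17 and from −0.15 to 0.16 in B73, and it was negative when body peaks had to lie at least 1000 bp from the 3′ end. Some genes passed the expression filter through 1 assay alone: 2 body-only genes in Mo17 and 13 in B73 were under 1 FPKM in both RNA-seq libraries, and 25 in Mo17 and 10 in B73 were under it in both polysome libraries. Genes with 1 library of an assay under 1 FPKM also needed the other assay to pass, and they are not in these counts.

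Genes with both kinds of peak had a lower median ratio than 3′-only genes. Of 589 in Mo17, 575 were tested, with 18 higher (3.13%, against 5.07% of all tested genes) and 117 lower (20.3%, against 16.6%). Of 703 in B73, 672 were tested, with 91 higher (13.5%, against 16.6% of all tested genes) and 29 lower (4.32%, against 5.36%). With libraries scaled to the median of log ratios, 61 were higher and 38 lower in Mo17, where 2569 and 1270 of all tested genes were. In B73, 45 were higher and 60 lower. No share is given, since the expression filter was applied after scaling and the set of tested genes could change. The calls over all tested genes moved with that scaling too, so these counts are not to be read against the shares as deposited. As deposited, the median log2 ratio of genes with both kinds was −0.46 in Mo17 and 0.13 in B73. It was below that of 3′-only genes by −0.15 ± 0.032 in Mo17 and −0.24 ± 0.013 in B73 (SD over the 2 replicate numbers). The span moved with these values, since over all tested genes the median log2 ratio was −0.26 in Mo17 and 0.39 in B73 for spans over 2000 and up to 4000 bp, and −0.78 in Mo17 and −0.17 in B73 for spans over 16000 bp.

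Within classes of span, the order of these groups was not the same throughout. For spans over 8000 and up to 16000 bp, genes with both kinds of peak had median log2 ratios of −0.32 in Mo17 (198 tested genes) and 0.17 in B73 (214 tested genes), against −0.61 in Mo17 (1266) and 0.005 in B73 (1233) for 3′-only genes. They were higher than 3′-only genes by 0.27 ± 0.028 in Mo17 and 0.15 ± 0.021 in B73 (SD over the 2 replicate numbers). For spans over 4000 and up to 8000 bp the difference was 0.34 ± 0.079 in Mo17, and 0.066 ± 0.11 in B73, where the SD was the larger. Over 16000 bp it was −0.041 ± 0.037 in Mo17, and −0.017 ± 0.032 in B73, where the SD was again the larger. Body-only genes with spans over 8000 and up to 16000 bp had −0.52 in Mo17 (179) and 0.0032 in B73 (95), a difference from 3′-only genes of 0.099 ± 0.044 in Mo17 and 0.044 ± 0.010 in B73. The number of exons, the transcript length and the amount of unspliced RNA were not used here, and their part in these ratios was not tested.

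**Figure D4:**
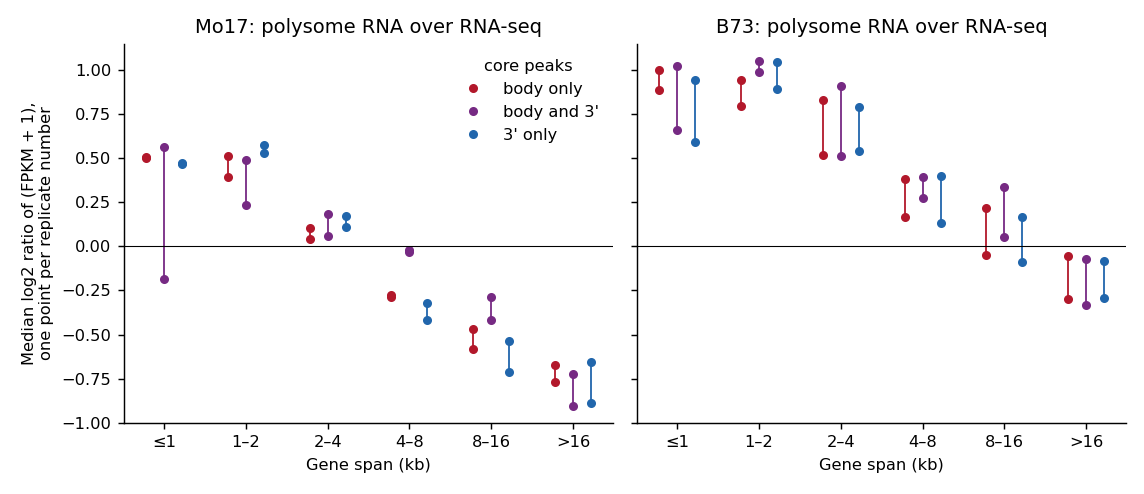
Median log2 ratio of polysome RNA over RNA-seq (FPKM + 1) by gene span in kb, 1 point per replicate number, for body-only genes, genes with core body and 3′ peaks and 3′-only genes of Mo17 (left) and B73 (right). From the class of 1 to 2 kb on, medians decline with span in all 3 groups, and from 8 to 16 kb the genes with both kinds of peak lie above 3′-only genes in both lines.

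The count of body peaks moved with the ratio in the same way as the span. Tested genes with 1 core body peak in the lower list had a median log2 ratio of −0.28 in Mo17 (1096 genes) and 0.34 in B73 (949 genes). Those with 2 had −0.50 in Mo17 (134) and 0.19 in B73 (122), and those with 3 or more had −0.71 in Mo17 (117) and −0.090 in B73 (142). Among the 117 tested Mo17 genes with 3 or more, 1 was higher and 32 were lower, where 5.07% and 16.6% of all tested genes were. Among the 142 in B73, 9 were higher and 11 lower, where 16.6% and 5.36% of all tested genes were. Their spans were the longest of the 3 classes, and the 2 measures cannot be told apart from these counts.

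Among called body-only genes, the largest fitted log2 ratio in Mo17 was that of Zm00014a_011610 (chromosome 3, 227250445 to 227251379, plus strand). It had 6.94 and 5.42 FPKM in polysome RNA and is listed at 0 in both RNA-seq libraries. It passed the expression filter through polysome RNA alone, so neither a fold nor a p is given. Its body peak stood at 77.0% and 77.1% of the 935 bp span, with folds of 7.44 and 8.70. Zm00014a_022007 (chromosome 1, 265709309 to 265714602, plus strand) had 115.1 and 115.1 FPKM in polysome RNA and 21.9 and 33.9 FPKM in RNA-seq, with a log2 ratio of 2.04 (SE 0.20, adjusted p = 0.00105 by limma). Zm00014a_013066 (chromosome 4, 971482 to 976704, plus strand) had 13.9 and 16.7 FPKM in polysome RNA and 3.86 and 3.56 FPKM in RNA-seq, with a log2 ratio of 1.79 (SE 0.16, adjusted p = 0.00083 by limma). These genes and the next were chosen for their ratios, so that their assays stand apart is part of the choice.

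At the other end of the Mo17 body-only genes, Zm00014a_001333 (chromosome 6, 116685530 to 116696537, plus strand) had 0.76 and 1.33 FPKM in polysome RNA and 30.6 and 27.7 FPKM in RNA-seq (log2 ratio −3.89). With 1 polysome library under 1 FPKM, it passed the expression filter only with RNA-seq, where it is high, so no p is given. Its body peak had folds of 6.37 and 3.39 at 73.4% and 73.3% of the span. Zm00014a_032667 (chromosome 2, 204619669 to 204633017, plus strand) had 1.39 and 2.60 FPKM in polysome RNA and 17.6 and 26.8 FPKM in RNA-seq, with a log2 ratio of −2.96 (SE 0.28, adjusted p = 0.000977 by limma). Zm00014a_022872 (chromosome 8, 119772754 to 119775523, minus strand) had 0.705 and 1.13 FPKM in polysome RNA and 12.4 and 12.5 FPKM in RNA-seq (log2 ratio −2.82). It too had 1 polysome library under 1 FPKM and passed the filter only with RNA-seq, and no p is given. This 2770 bp gene held 3 core body peaks in each list, from 11.3% to 78.6% of its span.

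In B73 the largest fitted log2 ratio was that of Zm00001d011947 (chromosome 8, 164908326 to 164909306, minus strand), with 7.11 and 4.13 FPKM in polysome RNA and 0 listed in both RNA-seq libraries. Like the gene that led in Mo17, it had a span under 1000 bp (981 bp) and a body peak near the 3′ limit, at 78.5% and 78.3%. Zm00001d041148 (chromosome 3, 100335184 to 100337063, plus strand) had 3.63 and 8.56 FPKM in polysome RNA, and in RNA-seq it is listed at 0 and at 0.495 FPKM. Both genes passed the expression filter through polysome RNA alone, and no fold or p is given for them. Its body peak had folds of 4.14 and 12.7 at the same base in both lists. Zm00001d048473 (chromosome 9, 156924709 to 156931203, minus strand) had 18.7 and 16.2 FPKM in polysome RNA and 2.14 and 3.54 FPKM in RNA-seq, with a log2 ratio of 2.29 (SE 0.24, adjusted p = 0.00112 by limma).

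The B73 body-only genes furthest below were long. Zm00001d022860 (chromosome 1, 173562664 to 173580674, minus strand) had 0.637 and 0.497 FPKM in polysome RNA and 2.99 and 4.98 FPKM in RNA-seq. It passed the expression filter through RNA-seq alone, so its lower call had to rest on that group, and neither a fold nor a p is given. Zm00001d043915 (chromosome 3, 213742292 to 213756288, minus strand) had 1.002 and 0.544 FPKM in polysome RNA and 3.8 and 5.11 FPKM in RNA-seq (log2 ratio −1.62). With 1 polysome library under 1 FPKM, it passed the filter only with RNA-seq, and no p is given. Its core body peak was at the same base in both lists, with folds of 13.0 and 18.3. Zm00001d045948 (chromosome 9, 48992565 to 49020996, plus strand) had 8.02 and 5.05 FPKM in polysome RNA and 20.7 and 21.4 FPKM in RNA-seq, with a log2 ratio of −1.57 (SE 0.23, adjusted p = 0.0034 by limma). It held 5 core body peaks in each list, the highest with folds of 17.9 and 20.2 at 77.8% of the span.

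**Figure D5:**
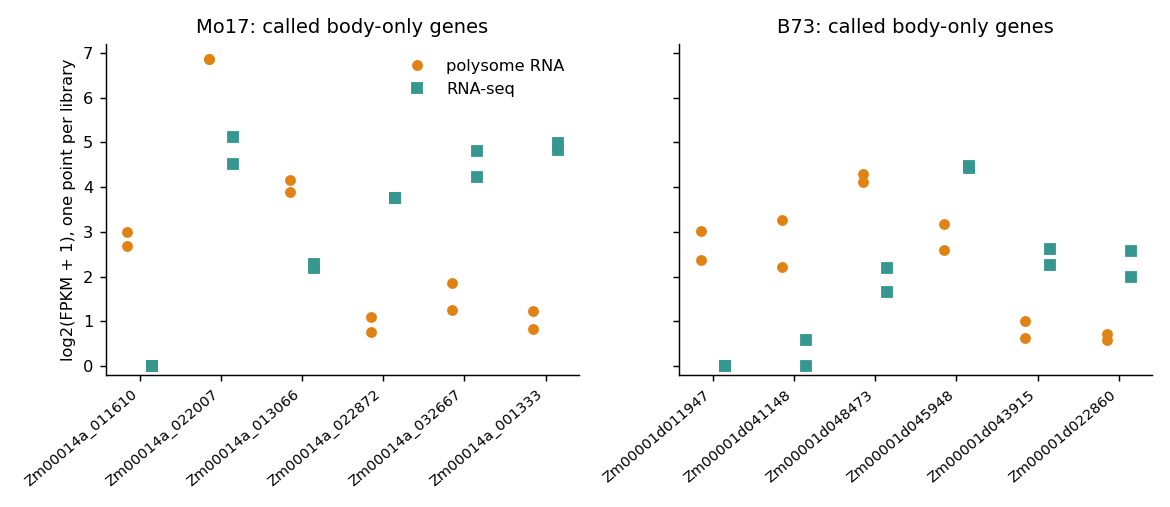
log2(FPKM + 1) in each polysome RNA and RNA-seq library for the called body-only genes with the 3 largest and 3 smallest log2 ratios in Mo17 (left) and B73 (right). The 12 genes were chosen for the distance between assays, which the plot shows by library, and 2 genes are listed at 0 in both RNA-seq libraries.

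As deposited, the Mo17 genes with the highest body folds had log2 ratios on both sides of 0, and the signs of Zm00014a_027777 and Zm00014a_006080 turned with the scaling. In Mo17, Zm00014a_027777 had 6.35 and 5.002 FPKM in polysome RNA and 7.64 and 7.07 FPKM in RNA-seq, and did not pass (log2 ratio −0.33, adjusted p = 0.142 by limma). Zm00014a_006080 had 6.49 and 5.94 FPKM in polysome RNA and 6.67 and 4.73 FPKM in RNA-seq, and its assays overlapped. Zm00014a_009096 had 6.78 and 8.25 FPKM in polysome RNA and 3.81 and 4.61 FPKM in RNA-seq, a log2 ratio of 0.71 that passed the adjusted p (0.018, limma) and not the size; under the median of log ratios it passed both (1.098). Zm00014a_019404 had 2.11 and 2.83 FPKM in polysome RNA and 0.712 and 0.724 FPKM in RNA-seq. It passed the expression filter through polysome RNA alone, so its higher call (log2 ratio 1.006) had to rest on that group, and with equal sums over the gene models the ratio was 0.86.

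None of the 3 tested B73 genes with the highest folds was called as deposited. Zm00001d052028 had 5.39 and 4.60 FPKM in polysome RNA and 4.57 and 6.16 FPKM in RNA-seq, and its assays overlapped. Zm00001d026485 had 2.29 and 1.93 FPKM in polysome RNA and 1.49 and 2.73 FPKM in RNA-seq, and overlapped too. Zm00001d043309 had 5.56 and 7.09 FPKM in polysome RNA and 3.18 and 3.004 FPKM in RNA-seq (log2 ratio 0.83, limma adjusted p = 0.0217), which passed the adjusted p and not the size; with a pseudocount of 0.1 it passed both.

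The genes with strings of body peaks had ratios below 0, except that the ratio of Zm00014a_042050 was 0.25 under the median of log ratios, and 1 of the 4 was called as deposited. Zm00014a_030343 of Mo17 had 9.34 and 9.50 FPKM in polysome RNA and 21.5 and 19.6 FPKM in RNA-seq (log2 ratio −1.05, limma adjusted p = 0.00163). Without RNA-seq replicate 1 its ratio was −0.98, and under the median of log ratios −0.61, both short of the size asked for. Zm00014a_042050 had 6.66 and 5.73 FPKM in polysome RNA and 6.18 and 7.82 FPKM in RNA-seq, and its assays overlapped. Zm00001d030282 of B73 had 4.23 and 8.33 FPKM in polysome RNA and 11.6 and 11.5 FPKM in RNA-seq (log2 ratio −0.84, limma adjusted p = 0.0596), and it was called lower without polysome RNA replicate 2 (log2 ratio −1.26) and with equal sums over the gene models (−1.39). Zm00001d038093 had 2.82 and 1.98 FPKM in polysome RNA and 3.08 and 3.605 FPKM in RNA-seq (log2 ratio −0.36, limma adjusted p = 0.238).

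Of the genes whose body peak most exceeded the 3′ peak, 1 of 4 was called as deposited. Zm00001d027841 of B73, the most abundant of them, had 413.8 and 586.9 FPKM in polysome RNA and 211.3 and 229.6 FPKM in RNA-seq (log2 ratio 1.16, limma adjusted p = 0.00495), and without polysome RNA replicate 2 the ratio was 0.91, under the size asked for, as it was with both other scalings (0.87 and 0.54). Zm00014a_040210 of Mo17 had 90.9 and 100.5 FPKM in polysome RNA and 57.5 and 52.8 FPKM in RNA-seq (log2 ratio 0.78, limma adjusted p = 0.00216), and it was called higher under the median of log ratios (1.24). Zm00001d052803 of B73 had 32.8 and 24.5 FPKM in polysome RNA and 16.8 and 18.3 FPKM in RNA-seq (log2 ratio 0.66, limma adjusted p = 0.0366). Zm00014a_029212 of Mo17 had 29.9 and 31.9 FPKM in polysome RNA and 33.5 and 29.1 FPKM in RNA-seq, and its assays overlapped.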

How the data were processed

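For each m6A-seq sample the authors deposited a peak list that gives every peak a fold enrichment (a ratio), −log10 of its p and q, an integer score and a summit position. The score was not used. For each RNA-seq or polysome RNA sample they deposited a table of FPKM by gene, with gene span and strand. Depth cannot be read from FPKM, no whole reads could be recovered from the values, and intervals for counting error are therefore absent. The submitters' processing notes name Trimmomatic 0.35, HISAT2, MACS2 and the build B73 RefGen_v4. Not given in the sources used here: the Mo17 build, the strand setting and the FPKM program. Per the labels' protocols, 1 kit served all 3 assays, and the labels give total RNA for m6A-seq and polyA RNA for RNA-seq and polysome RNA.

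Summits were assigned to gene spans (3 genes whose span differed between tables were left out: 2 in Mo17 and 1 in B73), and overlaps were checked against bedtools 2.31.1. Polysome RNA was compared with RNA-seq by limma 3.58.1 (R 4.3.3, trend on, 2 residual degrees of freedom) on log2(FPKM + 1). A ratio on this scale understates the change of low genes. The fit and the assignment were tested on simulated data. Lists were compared by exact permutation over the 4 lists, adjusted over 4 tests. These tests take the lists as independent, though the core peaks of the 2 lists of a line overlap by definition.

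The members, classes and lists were chosen with earlier results of these data known. Named genes were picked by rule in each line: the 4 with the highest fold shared by both lists, the 2 with the most core body peaks, the 3 largest and 3 smallest log2 ratios among called body-only genes with a mean of at least 2 FPKM, and the 2 whose body peak most exceeded the 3′ peak. The reference table paired no identifier of a gene with a core body peak, so lists based on gene descriptions had 0 members, and sequence was not used here. Same-numbered polysome and RNA-seq libraries did not deviate together (correlations of −0.035 in Mo17 and −0.135 in B73), so libraries were not paired in the fit. An SD over the 2 replicate numbers does pair them, by number only, and is a rough guide to the spread.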

Additional observations from a re-analysis of the deposited data

Results flagged for a closer look

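In all 3 classes of genes with core body peaks, the median log2 ratio of polysome RNA over RNA-seq was below 0 at both replicate numbers in Mo17 and above 0 at both in B73. In body-only genes it was −0.28 and −0.24 in Mo17, and 0.53 and 0.33 in B73. In genes with core body and 3′ peaks it was −0.52 and −0.38 in Mo17, and 0.243 and 0.0051 in B73. In genes that also had 5′ peaks, or 3′ peaks not shared between lists, it was −0.46 and −0.32 in Mo17, and 0.40 and 0.28 in B73. The difference between lines was not tested, because the lines have separate gene models and their tables were fitted apart. The median of all tested genes lay on the same sides, at −0.36 in Mo17 and 0.29 in B73, and moved with the scaling.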

How the results depend on the processing

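Body peaks were less often shared, lower and narrower than 3′ peaks under each alternative run: the difference ran from −29.4 to −17.7 percentage points in core share, from −1.72 to −0.32 in fold and from −40.0 to −3.5 bp in width. The smallest differences in fold and in width were those with −log10 q of at least 10, where little of the width difference was left (exact permutation p = 0.25). The core share has no value with an m6A list left out, since it needs both. Of 313 alternative values of the main results, 213 kept their direction and their side of the threshold (or, where there was no test, a size within the spread, and for counts within 1.5 times), 97 moved and 3 reversed; of 369 values of single genes and span classes, 319 did so, 26 moved, 13 reversed, 5 newly passed and 6 no longer passed the call. For the comparisons over lists the side of the threshold could not change, since so few lists cannot give a p below 0.05. Those values count as kept on direction alone, whatever their size, and the −3.5 bp in width is among them. The cause was not tested where a value turned. With peaks of at least 5-fold, the share of body genes with a 3′ peak was 36.4% in Mo17 and 47.9% in B73, the span excess of body-only over 3′-only genes 1854 bp in Mo17 and 1526 bp in B73, their RNA level difference −0.185 in Mo17 and −0.109 in B73, and their ratio difference 0.0075 in Mo17 and 0.039 in B73; calls were 31 higher and 72 lower (Mo17 body-only), 7 and 76 (Mo17 both kinds), 62 higher (B73 body-only) and 42 and 15 (B73 both kinds). With −log10 q of at least 10 the same values were 22.4% and 29.6%, 896.5 bp and 689 bp, −0.181 and a reversed 0.00079, and 0.175 and 0.164 in Mo17 and B73; calls were 35 and 42 (Mo17 body-only), 3 and 22 (Mo17 both kinds), 72 and 9 (B73 body-only) and 21 and 5 (B73 both kinds). With the body from 20% to 70% they were 43.1% and 54.6%, 975.5 bp and 1013 bp, −0.169 and −0.095, and 0.027 for the B73 ratio difference; calls were 33 and 64 (Mo17 body-only), 9 higher (Mo17 both kinds) and 62 higher (B73 body-only). With body peaks at least 1000 bp from the 3′ end they were 46.3% and 57.3%, 2740.0 bp and 2232 bp, −0.316 and −0.256, and reversed ratio differences of −0.132 in Mo17 and −0.146 in B73, with 26 (Mo17) and 58 (B73) body-only genes higher. With an overlap of 50% of both peaks, the share with a 3′ peak was 36.3% in Mo17 and 46.6% in B73, and in B73 the span excess was 512.5 bp and the RNA level difference −0.038. With no expression filter the RNA level difference was −0.221 in Mo17 and −0.277 in B73 and the B73 ratio difference 0.051. At 5 FPKM the Mo17 ratio difference was 0.142, and 10 body-only and 18 genes with both kinds were lower in B73. With a pseudocount of 0.1, 56 B73 genes with both kinds were lower and the B73 ratio difference was 0.143. Where the rule on peaks or the expression filter changed, the number of tested genes in each class changed too. Those numbers are not given here, so these counts of calls are not shares. They cannot be set against the shares of all tested genes or against the counts under the main rule.

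Scaling shifted the median of all tested genes to 0.031 in Mo17 and 0.060 in B73 (median of log ratios) or −0.57 in Mo17 and −0.21 in B73 (equal sums). Under the median of log ratios, calls higher and lower were 2569 and 1270 (all Mo17 genes), 142 and 47 (body-only) and 61 and 38 (both kinds), and in B73 1745 higher (all), 64 and 31 (body-only) and 45 and 60 (both kinds). Under equal sums they were 492 and 5254 (all Mo17), 30 higher (body-only), 8 and 187 (both kinds), and in B73 675 and 2557 (all), 25 and 53 (body-only) and 11 and 116 (both kinds). The expression filter was applied after either scaling, so the set of tested genes could change and these counts are not shares. Genes with both kinds of peak in spans over 8000 and up to 16000 bp stayed above 3′-only genes under all alternatives run, by 0.22 to 0.37 in Mo17 and 0.045 to 0.24 in B73. Leaving out 1 library or list at a time, the share with a 3′ peak ran from 42.4% to 43.6% in Mo17 and 54.4% to 56.4% in B73, the span excess from 295 to 359.5 bp and 9.5 to 115 bp, the RNA level difference from −0.13 to −0.044 and −0.132 to −0.024, the ratio difference from 0.034 to 0.10 and 0.042 to 0.12, and Mo17 genes with both kinds called higher from 16 to 29. With a replicate block, calls were 60 higher and 109 lower in Mo17 and 121 and 19 in B73 (body-only), and 18 and 117 in Mo17 and 93 and 30 in B73 (both kinds), and no count moved by over 1.5 times. A crossed replicate block for both lines, chosen after seeing the data, gave 60 and 109 in Mo17 and 119 and 19 in B73 for body-only genes.

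Of the named genes that were not called, 6 changed sign under some alternative. The ratio was reversed in Zm00014a_027777 (0.072), Zm00014a_042050 (0.25), Zm00014a_029212 (0.44) and Zm00001d026485 (−0.16) under the median of log ratios, and Zm00014a_006080 (−0.096) and Zm00001d026485 (−0.39) under equal sums. With libraries left out, the ratio ran from −0.089 to 0.33 in Zm00014a_006080, −0.112 to 0.085 in Zm00014a_029212, −0.26 to 0.10 in Zm00001d052028 and −0.26 to 0.32 in Zm00001d026485. FPKM give no depth, so what depth limits cannot be stated.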
